A study of Mus musculus with 60 samples.

Results

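The Hox genes were followed across every treatment of a compound screen in mouse embryonic stem cells. Members were the probe sets whose gene symbol is 1 of the 39 Hox genes of clusters A to D, with antisense genes left out. The array annotation named 38 of these genes, and 1 was not analysed here. Of the 21789 probe sets with a single gene symbol, 37 were Hox probe sets, 1 for each gene: 10 in cluster A and 9 each in clusters B, C and D. A further probe set carries the symbols of Hoxb7 and Hoxb8 together and was kept apart from the 37.

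Hox genes encode homeodomain transcription factors that assign position along the body axis. They lie in clusters in which a low paralogue number marks the 3′ end, and genes at that end are switched on earlier and further forward in the embryo than those at the 5′ end. In embryonic stem cells the clusters are held largely silent by Polycomb complexes, and retinoic acid, which binds nuclear receptors on DNA, is a textbook inducer of the 3′ genes.

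The screen used R1, an established mouse embryonic stem cell line, which was expanded on feeder cells, separated from them and then exposed while attached and undifferentiated. RNA was measured on 60 Affymetrix mouse gene arrays in 20 groups of 3, after 6 h of exposure. Every group, the solvent controls included, contained DMSO at 0.1%. Each compound was tested at a single concentration: the lowest of the concentration that cut viability by 10%, 1 mM and the solubility limit.

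The compounds that the labels class as teratogens were (-)-d-penicillamine, Dimethadione, Fluconazole, Topiramate and VPA (valproic acid) at 1 mM, (+/-)-Thalidomide at 0.35 mM, Dexamethazone (dexamethasone) at 0.1 mM, All trans retinoic acid at 0.024 mM, Methotrexate at 0.028 µM and 5-azacytidine (azacitidine). For the last the titles give 0.23 µM and the characteristics 23 µM. Those classed as non-teratogens were Chlorthalidone, Hydrochlorothiazide, Paracetamol and Sulfasalazine at 1 mM, Glybenclamide at 0.37 mM, Metoclopramide at 0.17 mM, Ondansetron at 0.054 mM, Loratadine at 0.043 mM and Clozapine at 0.028 mM. One cell line, one time point and unequal concentrations limit what the groups stand for. The labels call the arrays of a group triplicates without saying that they come from separate cultures, so the p-values measure the spread between these arrays, and 3 arrays per group limit the precision.

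Array medians ranged from 7.58 to 7.79 on the log2 scale, and the interquartile range of all signals on an array, called its spread here, from 2.97 to 3.31. All 12 embryonic stem cell markers were measured. Their mean lay between 11.98 and 12.003 on the DMSO arrays, 11.95 and 12.03 with retinoic acid, and 11.71 and 11.74 with VPA. With retinoic acid 1 was called higher and none lower (limma, adjusted p under 0.05), beside 5.9% and 3.92% of all probe sets. With VPA none was called higher and 6 lower, beside 15.5% and 11%. Paracetamol had 7 called lower and dexamethasone 2, with none higher, where 8.76% and 6.25% of all probe sets were called in either direction. The mean of 17 fibroblast markers, which feeder cells express, lay between 8.410 and 8.498 with DMSO and between 8.35 and 8.44 with retinoic acid. In bulk RNA, fewer cells of a type and less RNA per cell cannot be told apart.

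Retinoic acid raised 7 Hox genes and lowered 1 of the 37, and all 7 that rose were among the 3′ paralogues 1 to 5 of clusters A and B. Hoxb1, a hindbrain segment identity gene, and Hoxa5, which acts in the lung and the neck vertebrae, rose 2.81-fold and 2.76-fold. Hoxb4, Hoxb2 and Hoxb5 followed with 1.99-fold, 1.87-fold and 1.46-fold. In that comparison 21.6% of the Hox probe sets were called (limma, Benjamini-Hochberg adjusted p under 0.05), against 9.82% of all probe sets tested. Higher calls made up 5.9% of all probe sets and lower calls 3.92%.

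The 250 bases before the annotated start are shown for the 5 genes that rose and have a promoter entry, because they are the stretch in which a receptor or Hox cofactor element next to the start would lie. They come from RefSeq (GRCm38.p6) and read 5′ to 3′ on the gene's strand. Capitals mark AGGTCA, the core of a nuclear receptor element, or TGATNNAT, a pattern bound by Hox proteins with Pbx partners. A match on the opposite strand is printed as its reverse complement, so that AGGTCA reads TGACCT.
Hoxb1 (chr11:96365508-96365757, plus strand): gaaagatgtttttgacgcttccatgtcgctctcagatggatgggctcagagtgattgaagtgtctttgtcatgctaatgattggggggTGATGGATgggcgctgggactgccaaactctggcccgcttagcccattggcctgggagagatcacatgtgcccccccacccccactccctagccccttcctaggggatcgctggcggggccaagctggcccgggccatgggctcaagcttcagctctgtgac
Hoxb4 (chr11:96318017-96318266, plus strand): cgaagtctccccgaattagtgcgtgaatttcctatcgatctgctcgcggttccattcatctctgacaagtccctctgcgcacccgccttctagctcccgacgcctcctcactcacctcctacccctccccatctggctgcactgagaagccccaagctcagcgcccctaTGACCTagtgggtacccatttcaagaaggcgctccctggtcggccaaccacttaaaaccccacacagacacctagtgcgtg
Hoxa5 (chr6:52204588-52204837, minus strand): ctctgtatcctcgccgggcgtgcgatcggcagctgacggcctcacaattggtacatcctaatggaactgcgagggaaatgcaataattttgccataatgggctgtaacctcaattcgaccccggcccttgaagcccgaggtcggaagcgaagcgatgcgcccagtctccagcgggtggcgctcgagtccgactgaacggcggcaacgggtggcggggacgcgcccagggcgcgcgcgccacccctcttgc
Hoxa3 (chr6:52213068-52213317, minus strand): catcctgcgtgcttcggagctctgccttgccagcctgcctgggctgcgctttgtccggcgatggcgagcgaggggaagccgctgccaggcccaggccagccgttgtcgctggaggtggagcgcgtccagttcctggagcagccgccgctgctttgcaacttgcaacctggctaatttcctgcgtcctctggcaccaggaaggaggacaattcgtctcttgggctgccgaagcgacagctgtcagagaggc
Hoxa2 (chr6:52164832-52165081, minus strand): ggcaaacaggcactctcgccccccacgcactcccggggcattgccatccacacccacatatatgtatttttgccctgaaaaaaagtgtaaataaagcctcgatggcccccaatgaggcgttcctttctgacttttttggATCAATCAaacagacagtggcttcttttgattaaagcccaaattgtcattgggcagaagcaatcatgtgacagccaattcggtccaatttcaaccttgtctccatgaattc

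The Hoxb1 stretch holds TGATGGAT at -162 from the start, counted from the first base of the match. The Hoxb4 stretch holds AGGTCA on the opposite strand at -81, and the Hoxa2 stretch holds TGATTGAT on the opposite strand at -111. The Hoxa3 and Hoxa5 stretches have no capitals. In Hoxa5 an AGGTCA lies downstream of the start, at 42. The annotated Hoxa3 start used here lies past those of Hoxa5 and Hoxa6, between Hoxa6 and Hoxa7. Sequence beside any other start of Hoxa3 was not searched, so the missing capitals say nothing about it. In windows of 300 bases (250 before the start and 50 after it, both strands), AGGTCA was in 7 of 24 Hox promoters (29.2%) and in 16.3% of all 32851 promoters. Of these 7, 2 belong to genes that rose (Hoxb4 and Hoxa5) and 5 to Hoxc4, Hoxd3, Hoxd4, Hoxd8 and Hoxd10, none of which was called with retinoic acid. TGATNNAT was in 4 of 24 (16.7%) and in 8.85% of all; of the 4, 2 belong to genes that rose. Direct repeats with 5 or 2 bases between them, DR5 and DR2, searched with a looser form of AGGTCA (A or G first, G or T at the third and the fourth base), were in 0 of the 24 Hox promoters and in 0.39% and 0.53% of all. The table had promoters for 22 Hox genes, among them 5 of the 7 that rose, so Hoxb2 and Hoxb5 are named only. A match describes letters in a window, and the motifs were picked with the expression results known. Sequence farther from the start was not searched. With DR5 and DR2 this rare over all promoters, 0 of 24 cannot show that Hox promoters lack them.

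Hoxb1 gave log2 signals of 8.21, 8.27 and 8.09 on the DMSO arrays and 9.56, 9.75 and 9.74 with retinoic acid. The groups stood far apart, and no array of the other 18 compounds came near: those 54 arrays ran from 7.87 through a median of 8.09 to 8.48. The log2 fold change was 1.49 ± 0.080 (SE; 95% interval 1.33 to 1.65; adjusted p = 2.84e-20), the eleventh largest rise among the 21789 probe sets tested.

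Hoxa5 read 6.79, 6.76 and 6.74 with DMSO and 8.31, 8.12 and 8.26 with retinoic acid. The other compounds' 54 arrays spanned 6.40 to 7.01 with a median of 6.65, so again no array overlapped. Its log2 fold change was 1.47 ± 0.090 (95% interval 1.29 to 1.65; adjusted p = 4.37e-18).

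Hoxb4, a regulator of vertebral identity and of blood stem cell expansion, read 6.49, 6.62 and 6.54 with DMSO and 7.59, 7.49 and 7.56 with retinoic acid. The change was 0.99 ± 0.080 on the log2 scale (adjusted p = 5.71e-14), and the other compounds reached at most 6.82. Hoxb2, which acts in the hindbrain, went from 7.68, 7.59 and 7.49 to 8.70, 8.20 and 8.56. Its change was 0.90 ± 0.082 (adjusted p = 3.64e-12). Retinoic acid replicate 2 was the lowest of its 3 arrays, yet above the highest array of any other compound, 7.87.

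Hoxb5 had the widest scatter among the 5 genes that rose most. It read 7.11, 7.42 and 6.94 with DMSO and 7.71, 7.52 and 7.87 with retinoic acid. The lowest retinoic acid array stood 0.10 above the highest DMSO array, and the log2 fold change was 0.55 ± 0.102 (adjusted p = 0.000100). None of the 54 arrays of other compounds reached 7.52.

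**Figure D1:**
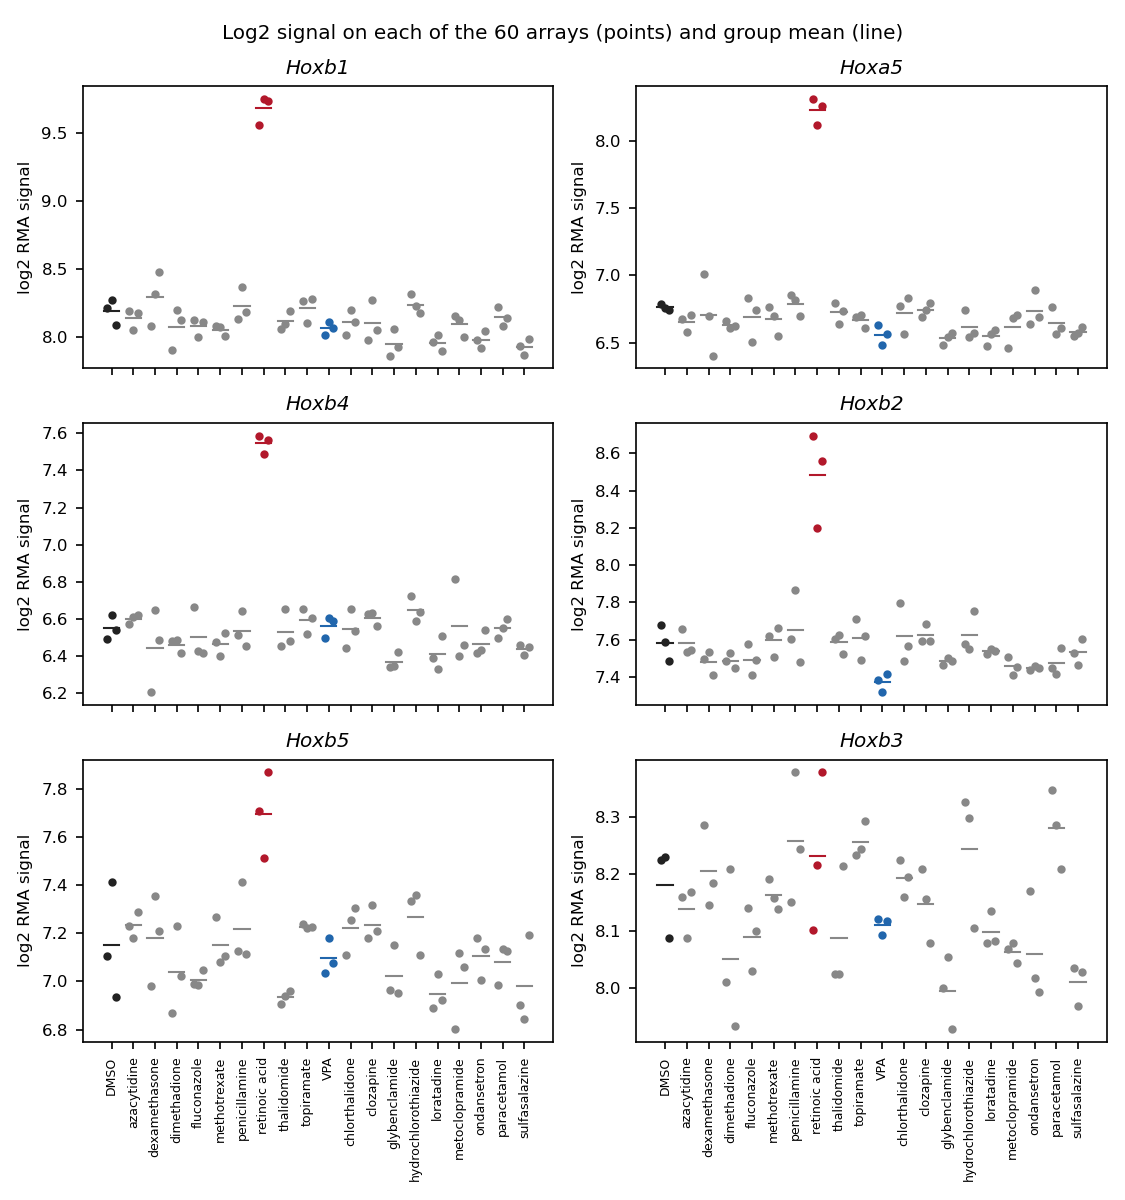
Log2 signal of Hoxb1, Hoxa5, Hoxb4, Hoxb2, Hoxb5 and Hoxb3 on each of the 60 arrays, by treatment. Points are arrays, lines are group means, and each panel has its own scale. The 3 retinoic acid arrays of the first 5 genes lie above all other arrays, whereas for Hoxb3 they lie among them, from 8.10 to 8.38.

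The cluster A genes Hoxa3, which patterns the pharyngeal arches, and Hoxa2, which sets the identity of the second arch, rose less. Hoxa3 went from 6.41, 6.49 and 6.23 to 6.78, 6.53 and 6.69, a log2 fold change of 0.29 ± 0.072 (adjusted p = 0.00500). Hoxa2 went from 5.78, 6.01 and 5.80 to 6.21, 6.01 and 6.06, a change of 0.23 ± 0.077 (adjusted p = 0.0454). In each, the closest retinoic acid and DMSO arrays nearly met, and 2 arrays of other compounds for Hoxa3 and 4 for Hoxa2 reached the lowest retinoic acid array.

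These smaller rises depended on single arrays and on the fit. The adjusted p of Hoxa3 was 0.0641 without DMSO replicate 3 and 0.0664 without retinoic acid replicate 1. That of Hoxa2 was 0.186 and 0.125 without DMSO replicates 1 and 3, and 0.234 and 0.0522 without retinoic acid replicates 1 and 3. With only the 6 arrays of retinoic acid and DMSO, the adjusted p was 0.119 for Hoxa3 and 0.179 for Hoxa2. Hoxa2 also lost its call with all probe sets tested (0.0630), with a trended and robust variance (0.0679) and with a covariate for a letter b in some sample titles (0.0763). Hoxa5, Hoxb1, Hoxb2, Hoxb4 and Hoxb5 were called in each setting in which they were tested, with each array left out included.

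Hoxd9, a 5′ gene of the limb and lumbar region, was the only one called lower. It read 7.40, 7.38 and 7.30 with DMSO and 7.13, 6.99 and 7.06 with retinoic acid. The change was -0.30 ± 0.097 (adjusted p = 0.0366). Although these 6 arrays did not overlap, 51 of the 54 arrays of other compounds were at or above the lowest retinoic acid array and 12 at or below the highest. The call was lost without DMSO replicates 1 or 2 (adjusted p = 0.114 and 0.122), without retinoic acid replicates 2 or 3 (0.167 and 0.0599) and with array spread as a covariate (-0.25, adjusted p = 0.0724). It was also lost with all probe sets tested (adjusted p = 0.0567).

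By position, 7 of 14 genes with paralogue numbers 1 to 5 rose, and none of the 23 with numbers 6 to 13 rose. In cluster B, 4 of the 5 genes numbered 1 to 5 rose, and in cluster A, 3 of 4. In cluster C none of 9 genes was called, with log2 fold changes from -0.23 to -0.06. In cluster D none rose and the values ran from -0.30 to -0.04. Calls above 0 thus lay in 2 of the 4 clusters, a difference between clusters that was not tested. The Hoxd1, Hoxd3 and Hoxd4 values (-0.09, -0.09 and -0.10) were on the other side of 0 from those of their A and B paralogues that rose.

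Within the stretches that rose, the change skipped genes. Hoxb3 read 8.22, 8.23 and 8.09 with DMSO and 8.10, 8.22 and 8.38 with retinoic acid (0.05 ± 0.066, adjusted p = 0.676), between neighbours that rose. Hoxa4, listed between Hoxa3 and Hoxa5 in the RefSeq gene order, changed by 0.01 ± 0.089 (adjusted p = 0.946). Past the last gene that rose in each cluster, Hoxa6 changed by 0.14 ± 0.073 (adjusted p = 0.245) and Hoxb6 by 0.02 ± 0.071 (adjusted p = 0.896). The probe set shared by Hoxb7 and Hoxb8 changed by 0.23 ± 0.102 (adjusted p = 0.181).

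**Figure D2:**
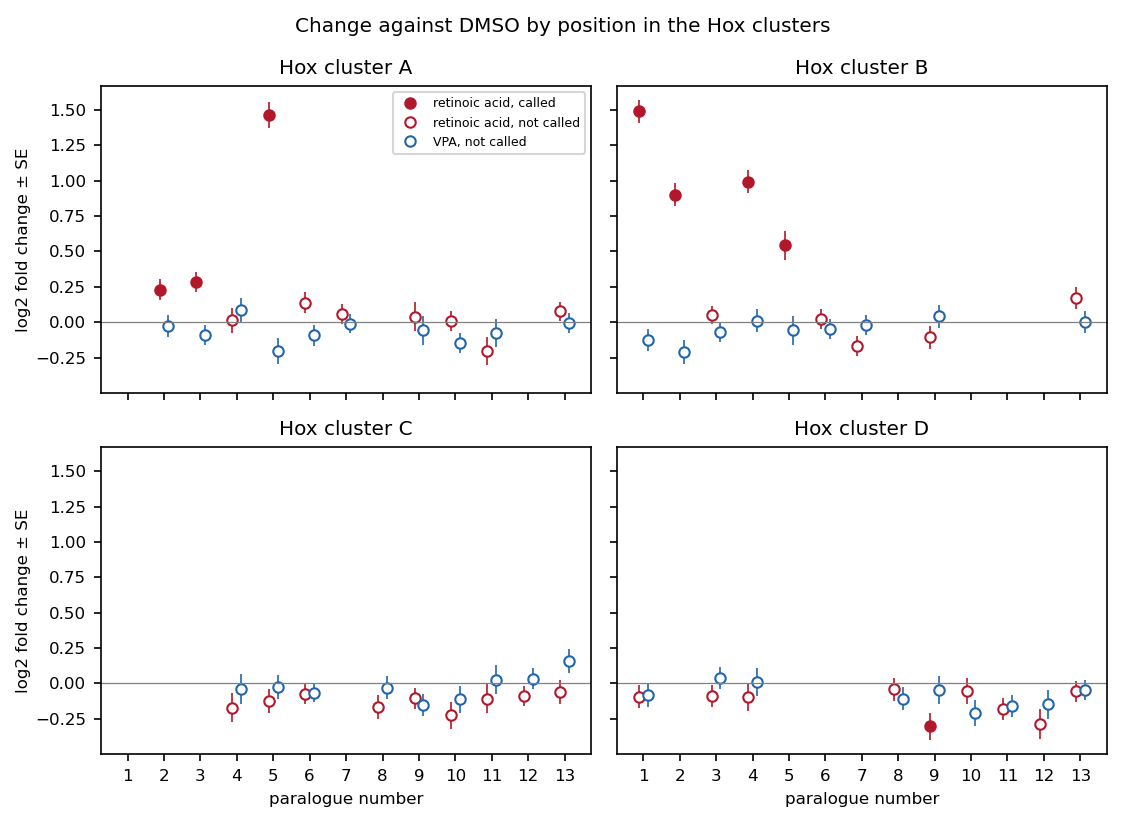
Log2 fold change against DMSO (± SE, 3 arrays per group) of each Hox gene by paralogue number, 1 panel per cluster. Red points are retinoic acid and blue points VPA, and filled points were called. Filled red points above 0 stop at paralogue 5 in clusters A and B, and there are none above 0 in clusters C and D.

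Over all 37 Hox probe sets the median log2 fold change with retinoic acid was -0.06, beside -0.03 over all probe sets. Unadjusted p was under 0.05 for 14 of the 37 and for 24% of all probe sets. All 3 retinoic acid arrays lay above all 3 DMSO arrays for 9 Hox probe sets and below them for 4, where 11.4% and 13.5% of all probe sets did so. Just outside the call, Hoxd12 changed by -0.29 ± 0.104 (adjusted p = 0.0710).

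Set directly against the mean of the other 18 compounds, which leaves the DMSO arrays out, retinoic acid gave 10 called Hox genes, 8 higher and 2 lower, where 17.5% of all probe sets were called (8.62% higher, 8.89% lower). Hoxb1 (1.58), Hoxa5 (1.57), Hoxb4 (1.03), Hoxb2 (0.95), Hoxb5 (0.59), Hoxa3 (0.33) and Hoxa2 (0.23) were again higher. Hoxb13, at the 5′ end of cluster B, was called here as well (0.24 ± 0.057, adjusted p = 0.00166), whereas its change against DMSO was 0.17 ± 0.079 (adjusted p = 0.174). Hoxb7 (-0.14) and Hoxc8 (-0.20) were called lower, whereas Hoxd9, the gene called lower against DMSO, was not (-0.18, adjusted p = 0.0778).

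VPA called 0 of the 37 Hox genes, although 26.5% of all probe sets were called with it, 15.5% higher and 11% lower. Unadjusted p was under 0.05 for 5 of the 37, all lower, and for 34% of all probe sets. The largest fall was that of Hoxb2, which read 7.39, 7.32 and 7.42 against 7.68, 7.59 and 7.49 with DMSO. The arrays did not overlap, but the change of -0.21 ± 0.082 missed the threshold (adjusted p = 0.0513). The largest rise was Hoxc13 at 0.16 ± 0.084 (adjusted p = 0.180).

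The 95% intervals for VPA reached from -0.40 for Hoxd10 to 0.33 for Hoxc13, so changes outside these bounds lay outside the interval of each of the 37 genes. All 3 VPA arrays lay below all 3 DMSO arrays for 7 Hox probe sets and above them for 1, where 19.6% and 23.4% of all probe sets did so. The median Hox change was -0.05, beside -0.01 over all probe sets. Other settings gave 0 to 2 calls, each of them lower; the 6 arrays of VPA and DMSO alone gave 2.

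The contrasts of retinoic acid and VPA with DMSO share the DMSO arrays, so the compounds were compared with each other. Retinoic acid was higher for Hoxa5 (1.67), Hoxb1 (1.62), Hoxb2 (1.11), Hoxb4 (0.98), Hoxb5 (0.60), Hoxa3 (0.38), Hoxa2 (0.26) and Hoxa6 (0.23). It was lower for Hoxd9 (-0.25) and Hoxc13 (-0.22). These 10 of 37 calls stand beside 33.1% of all probe sets, of which 14.7% were higher and 18.4% lower with retinoic acid. For Hoxb1, the VPA arrays read 8.02, 8.11 and 8.07, below each retinoic acid array and inside the range of the other compounds.

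Small falls were called with glybenclamide, loratadine and sulfasalazine, 4 Hox genes each and none higher. With glybenclamide these 10.8% of Hox probe sets compared with 9.54% of all called and 2.75% called lower. With loratadine the shares over all probe sets were 19.2% called and 8.26% called lower, and with sulfasalazine 8.9% and 3.5%. Shares of Hox genes called in either direction were therefore near the background for glybenclamide and sulfasalazine and under it for loratadine. As all of these Hox calls were falls, the share called lower is the closer comparison. The Hox share was above it with glybenclamide and sulfasalazine, and by less with loratadine (10.8% beside 8.26%). These differences in share were not tested. The Hox medians were -0.14, -0.14 and -0.15 for the 3 compounds, beside -0.03, -0.04 and -0.01 over all probe sets. Of the 37 values 36, 36 and 32 were below 0, beside 57.5%, 59.6% and 52.6% of all probe sets. Without overlap, all arrays lay below DMSO for 17 Hox probe sets with glybenclamide (14.9% of all probe sets), 15 with loratadine (21%) and 19 with sulfasalazine (17.2%).

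Hoxb1 was called lower with all 3 of these compounds, which share the DMSO arrays. It read 7.87, 8.06 and 7.93 with glybenclamide, 7.96, 8.02 and 7.90 with loratadine, and 7.93, 7.87 and 7.99 with sulfasalazine. The DMSO arrays read 8.21, 8.27 and 8.09, so the closest arrays were 0.03 apart for glybenclamide. The log2 fold changes were -0.24 ± 0.080, -0.23 ± 0.080 and -0.26 ± 0.080 (adjusted p = 0.0441, 0.0336 and 0.0329).

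Hoxa10, a gene of the lumbar region and the uterus, was called with 2 of these compounds. Its DMSO arrays read 7.34, 7.48 and 7.46, the glybenclamide arrays 7.28, 7.22 and 7.14, and the loratadine arrays 7.15, 7.26 and 7.16. The changes were -0.21 ± 0.072 (adjusted p = 0.0489) and -0.24 ± 0.072 (adjusted p = 0.0151). Neither compound's arrays overlapped those of DMSO.

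Hoxd12, a gene of the distal limb, read 6.70, 7.05 and 6.81 with DMSO, 6.52, 6.61 and 6.44 with loratadine, and 6.32, 6.44 and 6.63 with sulfasalazine. Its changes were -0.33 ± 0.104 (adjusted p = 0.0194) and -0.39 ± 0.104 (adjusted p = 0.0151). The DMSO arrays scattered as widely as the change itself, from 6.70 to 7.05, but no array overlapped.

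With glybenclamide, Hoxb13, a prostate and tail gene, went from 7.09, 7.14 and 7.001 to 6.72, 6.83 and 6.91 (-0.25 ± 0.079, adjusted p = 0.0319). Hoxd11, a gene of the forearm, went from 7.73, 7.73 and 7.58 to 7.48, 7.45 and 7.40 (-0.24 ± 0.078, adjusted p = 0.0450). With loratadine, Hoxd9 read 6.97, 7.20 and 7.12 (-0.27 ± 0.097, adjusted p = 0.0466), below the DMSO arrays given above. None of these 3 genes overlapped between its groups.

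With sulfasalazine, Hoxc4 went from 5.80, 5.79 and 5.52 to 5.32, 5.43 and 5.40 (-0.32 ± 0.104, adjusted p = 0.0424). Hoxd10, which acts in lumbar motor neurons, went from 7.22, 7.56 and 7.43 to 7.09, 6.98 and 7.18 (-0.32 ± 0.093, adjusted p = 0.0254). The arrays of both genes stood apart, by 0.09 and 0.04 at the closest pair.

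**Figure D3:**
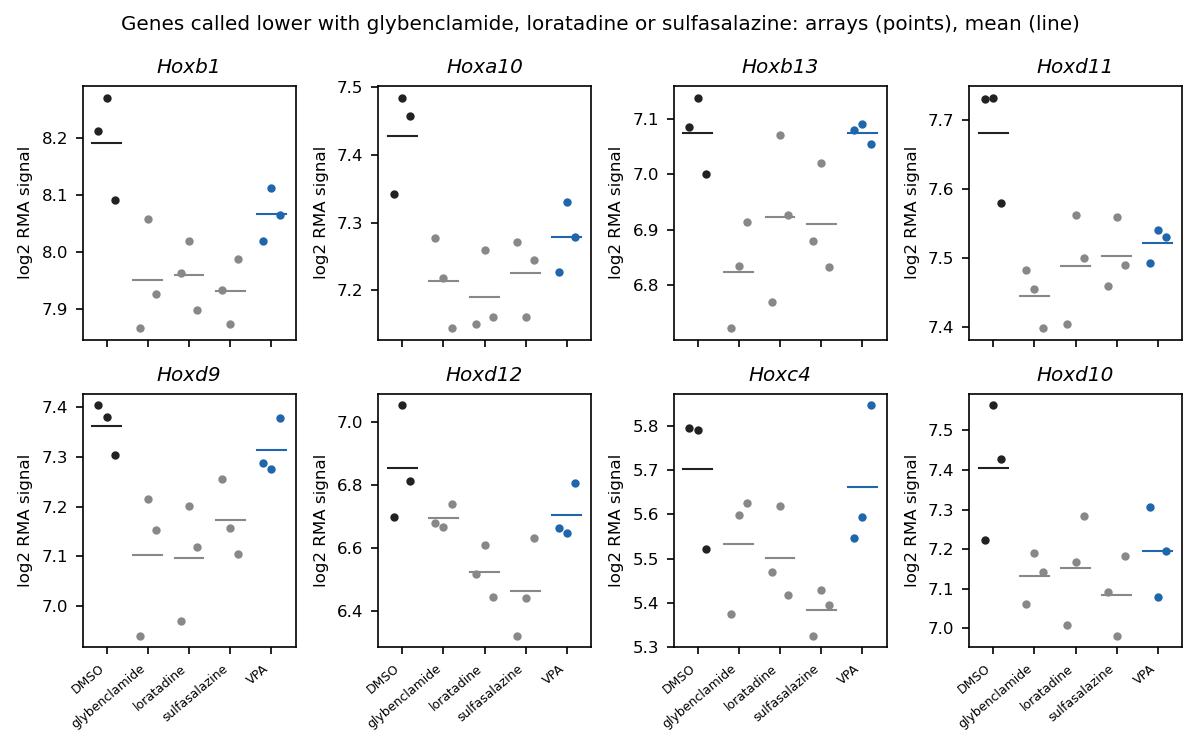
Log2 signal of the 8 Hox genes called lower with glybenclamide, loratadine or sulfasalazine, on the arrays of DMSO, these compounds and VPA; points are arrays, lines are means, and each panel has its own scale. The falls are between 0.21 and 0.39 log2 units, and the DMSO arrays of Hoxd12 span 6.70 to 7.05.

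The Hox level of these arrays is given here beside their spread. The mean of the 32 Hox probe sets other than Hoxa5, Hoxb1, Hoxb2, Hoxb4 and Hoxb5, a set chosen after the data were seen, was 7.15, 7.23 and 7.11 on the DMSO arrays, whose spreads were 3.20, 3.11 and 3.23. It lay between 7.03 and 7.06 with glybenclamide (spread 3.23 to 3.30), 7.03 and 7.05 with loratadine (3.24 to 3.27), and 6.99 and 7.04 with sulfasalazine (3.30 to 3.31). Fibroblast markers had means of 8.39 to 8.42, 8.35 to 8.44 and 8.37 to 8.41 in these groups, beside 8.410 to 8.498 with DMSO, and their part in the falls was not tested. The VPA arrays, at spreads of 3.23 to 3.27 near those of loratadine, had means of 7.09 to 7.13 over the same 32 Hox probe sets. The ondansetron arrays, at spreads of 3.26 to 3.29, had 7.04 to 7.09. Whether spread accounts for the falls was not tested.

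With array spread as a covariate, 0 Hox genes were called with any of the 3 compounds. The Hoxb1 changes were then -0.13, -0.13 and -0.09 (adjusted p = 0.255, 0.174 and 0.667). Without DMSO replicate 2, the DMSO array with the smallest spread and the highest Hox mean, 0 were called with each as well. Leaving out single arrays gave 0 to 6 calls for glybenclamide, 0 to 8 for loratadine and 0 to 5 for sulfasalazine. Glybenclamide lost all calls without its replicate 1, loratadine without its replicate 1, and sulfasalazine without its replicates 1 or 2. Glybenclamide had 2 calls without DMSO replicate 1, of which only Hoxa10 was among its 4, and 1 without its own replicates 2 or 3. Loratadine had 1 call without its replicate 3, in a Hox gene other than its 4, and 8 calls without DMSO replicate 3. Sulfasalazine had 2 without DMSO replicate 1.

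Over the 60 arrays, the mean of these 32 probe sets fell as spread rose, with Pearson r = -0.82 and Spearman rho = -0.87. This is a description: both measures come from the same arrays and the same RMA run. Only 4 of the 37 Hox probe sets had a mean at or above the median probe set. No set of equally dim probe sets was compared, so the correlation cannot be called particular to Hox genes. Without hydrochlorothiazide replicates 1 and 2, the arrays farthest from the median spread, Pearson r was -0.78 over 58 arrays. For deviations from the group means it was -0.72. Hydrochlorothiazide, at spreads of 2.97 to 3.17, had Hox means of 7.13 to 7.30. Under the covariate, the 5 genes that rose most with retinoic acid kept similar log2 fold changes against DMSO. These were 1.56 for Hoxb1, 1.45 for Hoxa5, 1.01 for Hoxb4, 0.88 for Hoxb2 and 0.62 for Hoxb5.

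**Figure D4:**
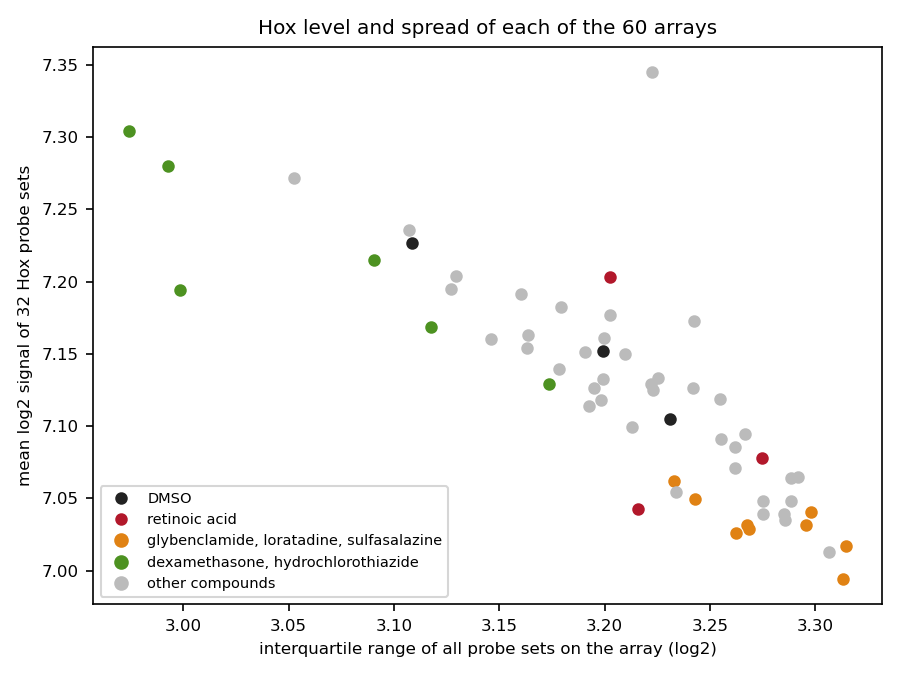
Mean log2 signal of 32 Hox probe sets (without Hoxa5, Hoxb1, Hoxb2, Hoxb4 and Hoxb5) against the interquartile range of all signals on the array; each point is 1 of 60 arrays. Sulfasalazine, loratadine and glybenclamide arrays sit at 6.99 to 7.06, and the 3 arrays with the smallest spreads (2.97 to 2.998) at 7.19 to 7.30. One array at 7.34 is penicillamine replicate 2.

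Dexamethasone, a glucocorticoid, raised 1 Hox gene and lowered 1, 5.41% of the 37 beside 6.25% of all probe sets (1.51% higher, 4.74% lower). Hoxa13, a gene of digits and genital tract, read 7.14, 7.02 and 7.06 with DMSO and 7.36, 7.37 and 7.45 with dexamethasone, well apart. Its change was 0.32 ± 0.069 (adjusted p = 0.00520). With array spread as a covariate it was 0.25 (adjusted p = 0.0621), and dexamethasone arrays had spreads of 2.998 to 3.12.

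Hoxc10, a lumbar gene, read 7.04, 6.90 and 6.80 with DMSO and 6.80, 6.81 and 6.24 with dexamethasone, and the groups overlapped. Its change of -0.30 ± 0.094 (adjusted p = 0.0479) rested on dexamethasone replicate 3, without which it was -0.11 (adjusted p = 0.506). Without any 1 of the DMSO replicates 1, 2 and 3 the call was lost as well (adjusted p = 0.217, 0.0698 and 0.07537), leaving 1 Hox call in each case. With only the 6 arrays of dexamethasone and DMSO, neither Hoxa13 nor Hoxc10 was called (adjusted p = 0.687 for both).

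The other 13 compounds, VPA apart, also gave 0 Hox calls. Penicillamine, thalidomide, azacytidine, fluconazole, topiramate and methotrexate called 0% of all probe sets, so the Hox count says nothing particular there. Chlorthalidone called 2.58% of all probe sets, clozapine 1.31%, hydrochlorothiazide 2.17%, dimethadione 0.119%, metoclopramide 0.197%, ondansetron 0.33% and paracetamol 8.76%. Unadjusted p was under 0.05 for 10 of the 37 Hox genes with ondansetron, beside 14.5% of all probe sets, and for 6 with thalidomide, beside 7.61%. It was so for 6 with hydrochlorothiazide, beside 21.7%, and for 3 each with metoclopramide, fluconazole and topiramate, beside 12.6%, 6.71% and 11.8%. The count was 2 with paracetamol (19.4% of all probe sets) and 1 each with penicillamine (8.49%), clozapine (9.72%) and dimethadione (10.4%). It was 0 with chlorthalidone (12.2%), azacytidine (8.06%) and methotrexate (6.59%).

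The largest Hox values of these compounds were small. Among the teratogens, penicillamine had Hoxa9 at 0.17 and Hoxd12 at -0.08, thalidomide Hoxc13 at 0.19 and Hoxd12 at -0.25, and azacytidine Hoxc8 at 0.12 and Hoxc10 at -0.12. Dimethadione had Hoxc8 at 0.08 and Hoxc9 at -0.28, fluconazole Hoxc5 at 0.05 and Hoxd9 at -0.23, topiramate Hoxa13 at 0.22 and Hoxd12 at -0.16, and methotrexate Hoxa9 at 0.12 and Hoxd9 at -0.18. The smallest adjusted p among these 14 values was 0.128, for Hoxc9 with dimethadione, which read 6.97, 6.94 and 7.07 against 7.21, 7.42 and 7.21 with DMSO. Topiramate arrays read 7.25, 7.20 and 7.43 for Hoxa13, above the 7.14, 7.02 and 7.06 of DMSO (adjusted p = 0.247).

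Among the non-teratogens, chlorthalidone had Hoxc6 at 0.12 and Hoxd12 at -0.17, clozapine Hoxa6 at 0.14 and Hoxc10 at -0.20, and hydrochlorothiazide Hoxa4 at 0.22 and Hoxa5 at -0.14. Metoclopramide had Hoxc13 at 0.16 and Hoxd12 at -0.24, ondansetron Hoxa13 at 0.12 and Hoxd10 at -0.27, and paracetamol Hoxc13 at 0.25 and Hoxc10 at -0.20. Paracetamol came closest to a call: Hoxc13 read 7.47, 7.36 and 7.27 against 6.98, 7.20 and 7.16 with DMSO (adjusted p = 0.0532), with no overlap. It had 1 call without DMSO replicate 2 or without its own replicate 3, and hydrochlorothiazide had 1 without its replicate 3. VPA had 1 without DMSO replicates 1 or 3.

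**Figure D5:**
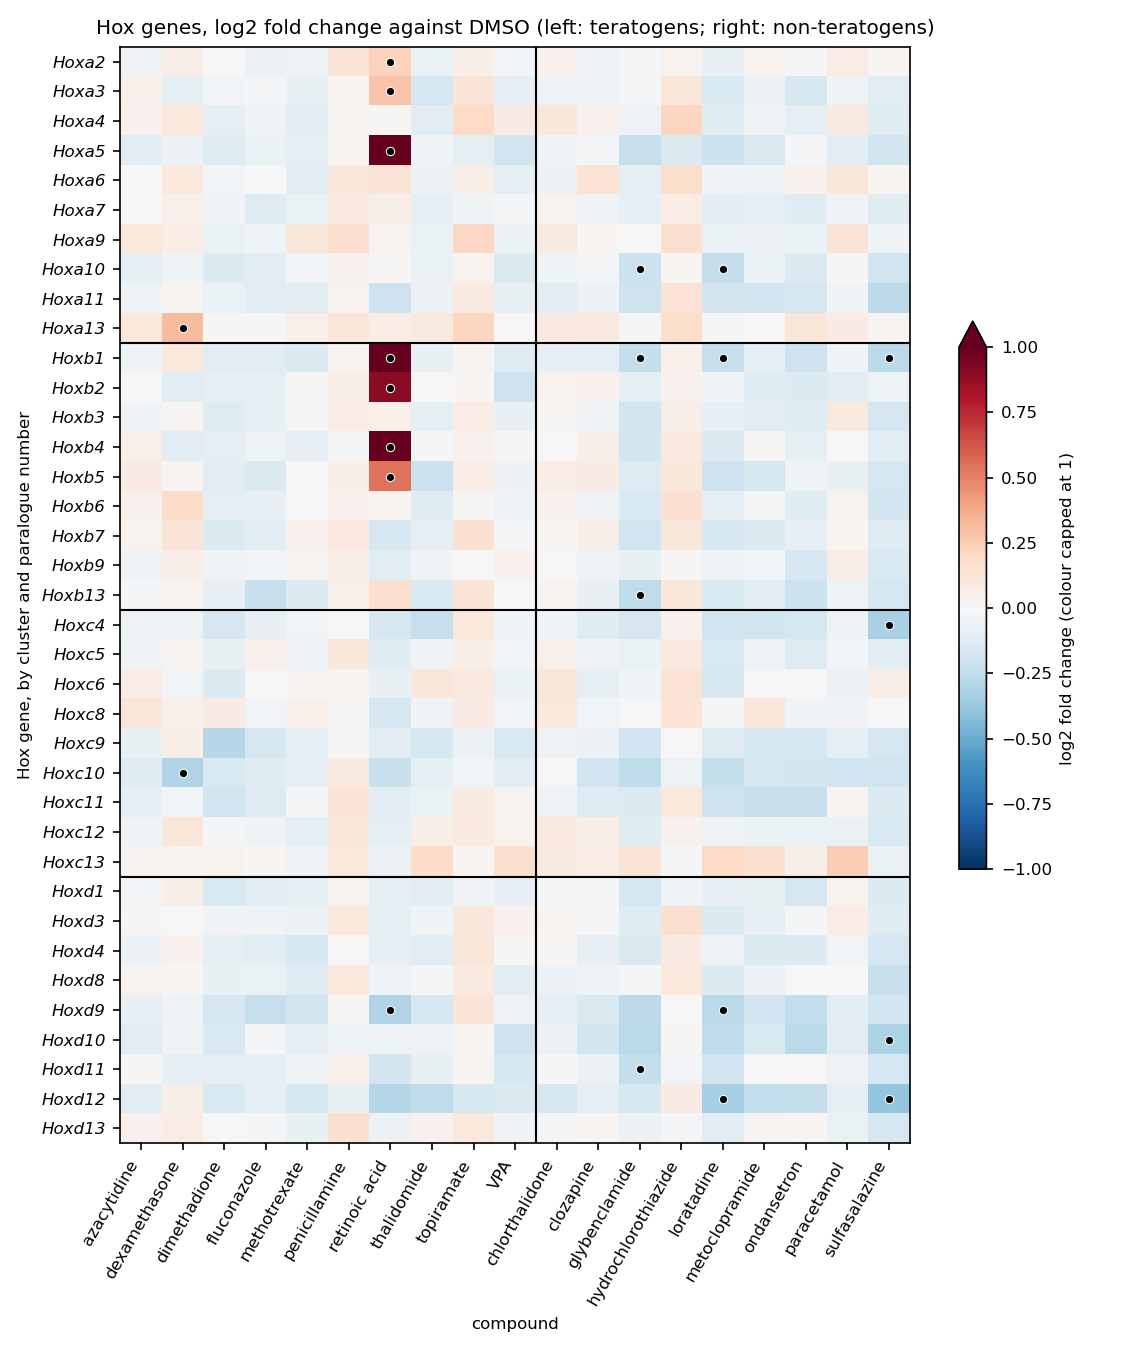
Log2 fold change of 37 Hox genes (by cluster and paralogue number) against DMSO for 19 compounds, teratogens on the left and non-teratogens on the right. Colour runs from blue (lower) to red (higher) and is capped at 1; dots mark called values. Retinoic acid holds 8 dots, dexamethasone 2, glybenclamide, loratadine and sulfasalazine 4 each, and the other 14 compounds 0.

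The class comparison asked whether Hox genes separate teratogens from non-teratogens. With the compound as the unit, 10 teratogen means against 9 non-teratogen means, 0 Hox genes were called, as were 0% of all probe sets (limma; smallest adjusted p among Hox genes 0.976). Unadjusted p was under 0.05 for 1 Hox gene, Hoxd10, at 0.10 ± 0.042, and for 955 of all 21789 probe sets. Hoxb1 had the largest class difference, 0.24 ± 0.146, with means of 8.30 (SD 0.494) over the teratogens and 8.06 (SD 0.106) over the others. The teratogens include retinoic acid, where Hoxb1 changed by 1.49 against DMSO, beside at most 0.10 with any other teratogen. The 95% intervals of the class difference ran from -0.13 to 0.54 over the 37 genes.

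Genes around Hox function were read from lists chosen with earlier results known. Over all probe sets, retinoic acid called 5.9% higher and 3.92% lower, and VPA 15.5% higher and 11% lower. The counts below stand beside these shares, and no list was tested as a set. Among TALE homeodomain cofactors, which bind DNA with Hox proteins, retinoic acid raised 3 of 8 and lowered none. Meis2 read 7.45, 7.44 and 7.57 with DMSO and 9.24, 9.70 and 9.35 with retinoic acid, without overlap (1.94 ± 0.086, adjusted p = 1.29e-23). Pbx2 changed by 0.72 ± 0.067 (adjusted p = 7.53e-12) and Meis1 by 0.64 ± 0.072 (adjusted p = 1.30e-09). With VPA 2 rose, Pbx3 (0.44) and Pbx4 (0.29), and 2 fell, Meis2 (-0.44) and Pbx2 (-0.20).

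Cdx1, an upstream regulator of Hox genes, was the member of 6 Cdx and ParaHox genes called higher with retinoic acid, and none was called with VPA. It read 8.25, 8.46 and 8.08 with DMSO and 8.66, 8.52 and 8.51 with retinoic acid (0.30 ± 0.092, adjusted p = 0.0272). The arrays did not overlap, but the call was lost when DMSO replicates 1 or 3 or retinoic acid replicates 1 or 2 were left out.

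Of 24 probe sets for 21 genes beside the clusters, 4 rose and 2 fell with retinoic acid. In the RefSeq gene order (GRCm38.p6), Ttll6 and Calcoco2 flank cluster B past Hoxb13, the end away from Hoxb1. Ttll6, a tubulin-modifying enzyme, went from 7.82, 7.94 and 7.95 to 8.74, 8.71 and 8.73 (0.83 ± 0.072, adjusted p = 8.20e-13). Calcoco2, an autophagy receptor, rose on both of its probe sets (0.88 ± 0.103 and 0.66 ± 0.086). Skap1, past Hoxb1, changed by -0.10 (adjusted p = 0.500).

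Beside cluster A, Skap2 at the 3′ end rose by 0.27 ± 0.066 (adjusted p = 0.00319), and the homeobox gene Evx1 past Hoxa13 fell by 0.30 ± 0.098 on the log2 scale (adjusted p = 0.0410). Gip, further out past cluster B, fell by 0.30 ± 0.085 (adjusted p = 0.0145). With VPA 3 of the 24 rose, led by Lnpk (0.35) and a probe set of Hibadh (0.24), and 4 fell, led by Smug1 (-0.31) and Hnrnpa2b1 (-0.24). Over all probe sets VPA called 26.5% in either direction. The other Hibadh probe set, with a much lower signal, gave -0.50 ± 0.201 (adjusted p = 0.0577), so the probe sets of this gene disagree.

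The microRNAs of the clusters were read through gene array probe sets, which do not separate precursor from mature forms. The pair of miR-10 forms is shown because Mir10a lies between Hoxb5 and Hoxb4, both of which rose, in the RefSeq order. Their seeds (bases 2 to 8, in capitals) are the same, and they differ by U12A, counted from the 5′ end of miR-10a-5p.
mmu-miR-10a-5p: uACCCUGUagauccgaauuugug
mmu-miR-10b-5p: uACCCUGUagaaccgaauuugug
None of 6 microRNA probe sets was called with retinoic acid or VPA. Mir10a read 3.80, 4.03 and 3.87 with DMSO and 4.001, 4.06 and 4.02 with retinoic acid, which overlapped (0.13 ± 0.073, adjusted p = 0.269). The largest value with either compound was that of Mir196b, -0.21 ± 0.100 with retinoic acid (adjusted p = 0.190) and -0.24 ± 0.100 with VPA (adjusted p = 0.0699). None of 5 probe sets for 4 non-coding RNAs of the clusters was called either, the largest being Hoxaas2, next to Hoxa3, with retinoic acid at 0.26 ± 0.102 (adjusted p = 0.109).

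Among Polycomb genes, whose complexes keep Hox clusters silent, retinoic acid raised 3 of 27 probe sets and lowered 2. Phf19 (0.40 ± 0.069) and Mtf2 (0.24) rose most, and Kdm2b (-0.29) and Cbx2 (-0.19) fell. The 5 calls were 3 without DMSO replicates 1 or 2 and 2 without retinoic acid replicate 2. VPA raised 3 of the 27 and lowered 12, beside 15.5% and 11% of all probe sets. The falls were led by Pcgf2 (-0.43) and Bmi1 (-0.38), while Yaf2 (0.42) and Ezh1 (0.33) rose.

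Kdm6b, which removes the Polycomb mark from histone H3, was the 1 of 11 trithorax and demethylase genes called with retinoic acid. It went from 9.34, 9.34 and 9.38 to 10.06, 9.95 and 10.11 (0.69 ± 0.064, adjusted p = 5.07e-12). Without retinoic acid replicates 1 or 3 the list had 2 calls. With VPA it rose less (0.21), and 5 members fell, led by Kdm6a (-0.45) and Kmt2b (-0.39).

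Of 19 genes for retinoid receptors and metabolism, 8 rose and 3 fell with retinoic acid. Cyp26a1, which degrades retinoic acid, read 6.67, 6.77 and 6.496 with DMSO and 10.70, 10.58 and 10.66 with retinoic acid (4.004 ± 0.086, adjusted p = 7.47e-37). Dhrs3 (1.95), the receptor gene Rarb (1.77) and Stra8 (1.40) rose next. The 11 calls were 7 without DMSO replicate 2. With VPA 3 of the 19 rose and 5 fell, among them Crabp1 (0.56), Rarg (-0.62), Rxrg (-0.44) and Cyp26a1 (-0.38).

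List medians with retinoic acid, beside -0.03 over all probe sets, were 0.02 for cofactors, -0.12 for Cdx and ParaHox genes, 0.04 for genes beside the clusters and -0.05 for microRNAs. They were -0.06 for non-coding RNAs, 0.004 for Polycomb, 0.04 for trithorax and demethylase genes and 0.05 for retinoid genes. With VPA (-0.01 over all probe sets) they were, in the same order, 0.11, -0.05, -0.06, -0.10, -0.06, -0.16, -0.14 and -0.02.

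Markers of other cell types were read beside these changes, where retinoic acid called 5.9% of all probe sets higher and 3.92% lower. The mean of 10 primitive endoderm probe sets was 7.71 to 7.799 with DMSO and 7.83 to 7.84 with retinoic acid, with 1 called higher and none lower. That of 7 streak and early mesoderm markers was 7.75 to 7.86 and 7.69 to 7.796, with none called. That of 7 neural markers was 8.39 to 8.49 and 8.36 to 8.43, with 1 called higher and 2 lower. Of the fibroblast markers 1 was called higher and 2 lower. Their part in the Hox changes was not tested.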

How the data were processed

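RNA was labelled as biotinylated cDNA and hybridised to 60 arrays. The authors deposited 1 log2 signal per probe set and array, made with RMA, per the submitters' processing notes; no version, option or genome build is given in the sources used here. RMA in general shrinks the changes of dim probe sets, and only 4 of the 37 Hox probe sets had a mean at or above the median probe set. Of 35556 probe sets, 23410 were annotated; 21789 carry 1 gene symbol, 1621 several and 12146 none. Symbols were updated through Entrez IDs, of which 21698 matched. The table held 0 columns of other samples.

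The values were fitted with limma 3.58.1 in R 4.3.3 (lmFit, eBayes, 1 mean per group, 60 arrays, 40 residual and 7.31 prior degrees of freedom), and p-values were adjusted by Benjamini-Hochberg over all 21789 probe sets within a contrast. The code was tested on simulated data. Named genes were every called Hox gene, up to 12 per compound, and for compounds without a call the largest rise and fall. For a related list they were up to 4 called members, or the largest where none was called; Evx1, Skap1, Skap2, Mir10a and the Hox neighbours of called genes were named outside the rule, after their values were seen. Hox members and lists were chosen with earlier results of these data known. Alternatives were other normalisation, probe filters, variance settings, covariates, references and each array left out. Replicate numbers follow the order of deposit and pair nothing.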

Additional observations from a re-analysis of the deposited data

Results flagged for a closer look

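Within the 10 teratogens or the 9 non-teratogens, the compound farthest from the others was compared with its nearest neighbour by Dixon's criterion, over 74 groups, of which chance marks about 5 percent. It marked 5, all of them retinoic acid among the teratogens. The log2 fold change of Hoxb1 was 1.49 with retinoic acid and at most 0.10 with any other teratogen. That of Hoxa5 was 1.47, with the next at 0.03. Hoxb4 stood at 0.99 and the next at 0.05, Hoxb2 at 0.90 and the next at 0.06, and Hoxb5 at 0.55 and the next at 0.08. These changes share the DMSO arrays and are the same rises described above, so they are no further evidence for them.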

How the results depend on the processing

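No paired analysis was possible because the labels carry no replicate numbers; the numbers used follow the order of deposit. No result changed direction among those called. With the filter to probe sets at or above the median mean, which only 4 Hox probe sets pass, the calls were 1 for retinoic acid against DMSO, against VPA and against the other 18 compounds (8, 10 and 10 without it), 2 for glybenclamide, 1 for loratadine, 1 for sulfasalazine and 0 for dexamethasone. Array spread as a covariate gave 0 for glybenclamide, loratadine, sulfasalazine and dexamethasone, and 1 each for paracetamol and VPA. Quantile normalisation gave 2 for glybenclamide and sulfasalazine and 1 for paracetamol; testing all probe sets gave 1 for glybenclamide, 2 for sulfasalazine and 1 for dexamethasone. The 6 arrays of a compound and DMSO gave 1 for glybenclamide, 1 for sulfasalazine, 0 for dexamethasone and 2 for VPA. For glybenclamide and for sulfasalazine that call was in a Hox gene other than the 4 described above, which all lost their calls. A covariate for the letter b in 8 sample titles, whose meaning is not given, gave 1 each for dexamethasone, paracetamol and VPA. Against the average of the other 18 compounds, calls were 12 for hydrochlorothiazide, 9 for sulfasalazine, and 7 each for glybenclamide, loratadine and topiramate. They were 6 for dexamethasone, and 2 each for penicillamine, paracetamol and VPA. That average includes retinoic acid for all but that compound. The share of all probe sets called in these contrasts is given above for retinoic acid only. These counts therefore cannot be read as above or below a background. Leaving out single arrays gave 6 to 9 for retinoic acid, 7 to 9 against VPA, 7 to 11 against the other compounds, 1 to 3 for dexamethasone, 0 to 6 for glybenclamide, 0 to 8 for loratadine, 0 to 5 for sulfasalazine, and 0 to 1 for VPA, paracetamol and hydrochlorothiazide. The class count stayed 0 in its settings. The cause of these shifts was not tested, beyond the smaller number of probe sets or arrays that a setting leaves. Changes near 0.2 to 0.4 log2 units are at the limit of 3 arrays per group.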
